A study of Homo sapiens with 14 samples.

Results

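The genes described here encode the protein arginine methyltransferases PRMT1, PRMT2, PRMT3, CARM1, PRMT5, PRMT6, PRMT7 and PRMT9 and the PRMT5 partner proteins WDR77 and CLNS1A. They were found by gene name in a table of read counts, and all 10 were present among its 58780 genes. The assay was PRO-seq (precision run-on sequencing): engaged RNA polymerases extend their transcripts with labelled nucleotides after the cell membrane is opened, and the labelled RNA is sequenced. All libraries came from A549, an established line from a human lung adenocarcinoma, and the labels name no engineered allele. The 14 libraries formed 7 groups of 2. These were untreated cells with a 15 min label, 1 µM GSK591 or 1 µM MS023 for 15 min, each inhibitor with 100 nM dexamethasone (Dex) over the same 15 min, and each inhibitor alone for 3 h. The labels give 0.01% DMSO for every group. GSK591 inhibits PRMT5, MS023 inhibits the type I enzymes, and Dex is a synthetic glucocorticoid.

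Arginine methyltransferases transfer methyl groups from S-adenosylmethionine to arginine side chains of histones, splicing factors and other RNA-binding proteins. Type I enzymes (PRMT1, PRMT2, PRMT3, CARM1, PRMT6) make monomethyl and asymmetric dimethyl arginine, type II enzymes (PRMT5, PRMT9) make the symmetric dimethyl form, and the type III enzyme PRMT7 stops at monomethyl arginine. PRMT5 works in a complex with the WD-repeat protein WDR77, and CLNS1A (pICln) is an adaptor that brings Sm proteins of the spliceosome to that complex.

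Library totals ran from 5768312 to 9606938 counts, and mitochondrial genes took 39.8% to 58.0% of them. The MS023 15 min libraries had shares of 44.5% and 39.8%, against 54.0% and 53.8% in untreated cells and 47.3% and 43.5% after 3 h of GSK591. The second MS023 15 min library had the lowest share and was also the shallowest. The keratin genes KRT8 and KRT18 stood at 308 ± 6.58 and 141 ± 3.31 CPM (counts scaled to the library's size) in untreated cells (SD, n = 2), KRT19 at 17.9 ± 1.91, EPCAM at 2.82 ± 0.27 and CDH1 at 2.12 ± 0.56 CPM. Of the markers of other cell types, COL1A1, a fibroblast gene, stood at 6.18 ± 0.38 CPM, above EPCAM and CDH1, while COL1A2, PTPRC, PECAM1 and VWF had 1 to 6 counts over both untreated libraries and CD3E had 0 counts in every library. PER1, a glucocorticoid target, stood at 27.9 ± 1.5 CPM in untreated cells, 99.3 ± 11.4 CPM with GSK591 and Dex and 120 ± 11.8 CPM with MS023 and Dex. The labels do not say that the libraries of a group came from separate cultures, so p-values measure the spread between these libraries, which may be technical.

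The members lie on 7 chromosomes, and several overlap other genes (GRCh38, GENCODE 29). PRMT5 (ENSG00000100462.15) spans chromosome 14, 22920511 to 22929585, on the minus strand, with 16 exon blocks. The antisense gene PRMT5-AS1 (22918947 to 22926900, plus strand) covers 938 of its 3467 exon bases, and PRMT5-DT (22929609 to 22955562, plus strand) starts just upstream of it in the opposite direction. WDR77 (ENSG00000116455.13, chromosome 1, 111439890 to 111449376, minus strand) shares 36.5% of its exon bases with AL390195.1 and ATP5PB, CARM1 (chromosome 19, 10871513 to 10923070, plus strand) 19.9% with YIPF2, and PRMT1 (chromosome 19, 49675786 to 49689029, plus strand) 7.63% with ADM5 and AC011495.3. PRMT7 (chromosome 16, 68310974 to 68358563, plus strand) shares 2.53% with SMPD3. PRMT2 (chromosome 21, 46635167 to 46665124, plus strand), PRMT3 (chromosome 11, 20387530 to 20509294, plus strand), PRMT6 (chromosome 1, 107056679 to 107067636, plus strand), PRMT9 (chromosome 4, 147637785 to 147684230, minus strand) and CLNS1A (chromosome 11, 77514936 to 77637805, minus strand) share none. All 710 genes of the table whose exons lie wholly under opposite-strand exons were at 0 in every library, against 27.4% of 41795 genes with no shared exon, and so were all 1139 genes wholly shared on the same strand. Reads in shared exons were therefore absent from these counts, reads of both strands were pooled in the rest, and levels are given per kb of unshared exon. This length assumes that reads were counted over exons, as the counting feature is not given.

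RefSeq (GRCh38.p14) gave 12 start sites for the 10 genes. The 250 bases before them held a median of 21 CpG, with 12 (CLNS1A) to 45 (CARM1), against a median of 11 over 35116 such windows. Searched on both strands, CCAAT occurred in 32.0% of all windows and in 2 members' windows, those of PRMT5 (3 matches) and PRMT1 (2 matches). The GC-box core GGGCGG occurred in 9 of the 12 windows (42.6% of all) and TATAAA in 0 (10.7% of all). The E-box CACGTG occurred in the PRMT3 window (6.34% of all).  Most windows run into annotated first exons, so the stretches shown are the parts outside any GENCODE exon for the genes on which later results turn. They are the gap between the divergent starts of PRMT5 and PRMT5-DT (chr14:22929586-22929608, minus strand, 23 bases), the upstream region of PRMT9 (chr4:147684231-147684413, minus strand, 183 bases, 17 CpG) and that of PRMT6 (chr1:107056424-107056673, plus strand, 250 bases, 16 CpG). Capitals would mark a match to any of these motifs, and none of these stretches holds one, which says only that those letters are absent there.
PRMT5: agactaagcattctgggagattg
PRMT9: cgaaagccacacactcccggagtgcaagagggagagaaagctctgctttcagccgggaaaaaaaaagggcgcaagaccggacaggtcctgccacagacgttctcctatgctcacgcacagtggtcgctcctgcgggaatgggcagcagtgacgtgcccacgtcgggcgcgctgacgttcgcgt
PRMT6: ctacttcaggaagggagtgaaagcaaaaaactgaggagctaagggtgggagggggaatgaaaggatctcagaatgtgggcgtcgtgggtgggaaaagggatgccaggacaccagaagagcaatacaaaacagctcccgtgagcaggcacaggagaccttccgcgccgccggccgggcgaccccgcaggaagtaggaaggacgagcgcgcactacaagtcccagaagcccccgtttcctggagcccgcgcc

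In untreated cells PRMT1, which makes most of the asymmetric dimethyl arginine of mammalian cells, had the highest level per length, at 21.4 and 21.3 CPM per kb of unshared exon in the 2 libraries. That was 3.93 times the level of PRMT5 and higher than that of 94.5% of the genes tested. PRMT3, which methylates a ribosomal protein, followed at 5.61 ± 0.32, PRMT5 at 5.43 ± 0.038 and PRMT2 at 5.05 ± 0.38 CPM per kb (SD, n = 2). CARM1, a coactivator of nuclear receptors, stood at 4.47 ± 0.27, PRMT7 at 3.71 ± 0.17 and WDR77 at 3.50 ± 0.43 CPM per kb. CLNS1A stood at 2.61 ± 0.45 and PRMT9, which methylates a splicing factor, at 1.79 ± 0.11 CPM per kb. PRMT6 had 0 counts in both untreated libraries. Among neighbours in this order, the libraries of PRMT3 and PRMT5 overlapped, as did those of PRMT7 and WDR77, while the other neighbours did not overlap. PRMT1 ranked first and PRMT6 last in all 7 groups, PRMT3, PRMT5 and PRMT2 held ranks 2 to 4, CARM1 and PRMT7 ranks 5 and 6, and WDR77, CLNS1A and PRMT9 ranks 7 to 9. The choice between unshared exon and all exon bases as the length was made after the data were seen. With all exon bases, PRMT5 stood at 3.96, CARM1 at 3.58 and WDR77 at 2.23 CPM per kb. PRMT5 then stood below PRMT2, CARM1 below PRMT7 (3.62) and WDR77 below CLNS1A.

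**Figure D1:**
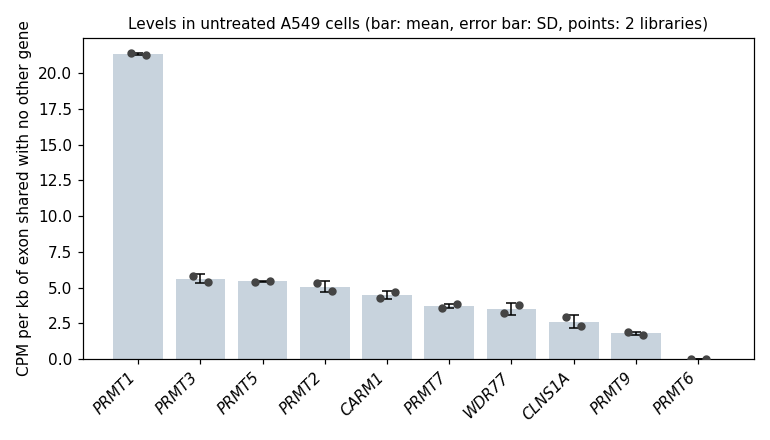
Level of each gene in untreated A549 cells in CPM per kb of unshared exon (bars: mean, error bars: SD, points: the 2 libraries). PRMT1 stands at 21.3, PRMT3 to PRMT9 run from 5.61 down to 1.79, and PRMT6 is at 0.

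Across treatments the genes moved little. The ratio of the highest to the lowest group mean in CPM was 1.17 for PRMT3, 1.19 for PRMT2, 1.23 for PRMT1, 1.25 for CARM1, 1.26 for CLNS1A and 1.27 for PRMT7, and it was larger for PRMT5 (1.55), WDR77 (1.84) and PRMT9 (1.90). Of the 10 members, 9 had enough counts to be tested and PRMT6 did not. Over 12 comparisons, edgeR's quasi-likelihood test called a member 3 times at an adjusted p under 0.05 over 21910 genes. All 3 were falls, and all 3 were measured from the MS023 15 min libraries: PRMT5 and PRMT7 after 3 h of MS023, and PRMT9 when Dex was added to MS023. In these comparisons 12% and 8.97% of all genes were called in either direction, and 4.4% and 3.07% were called lower. Comparisons with a common group share its libraries, so they are not independent of each other. Groups of 2 libraries can lie apart by chance, and the share of all genes whose groups do so was not counted.

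**Figure D2:**
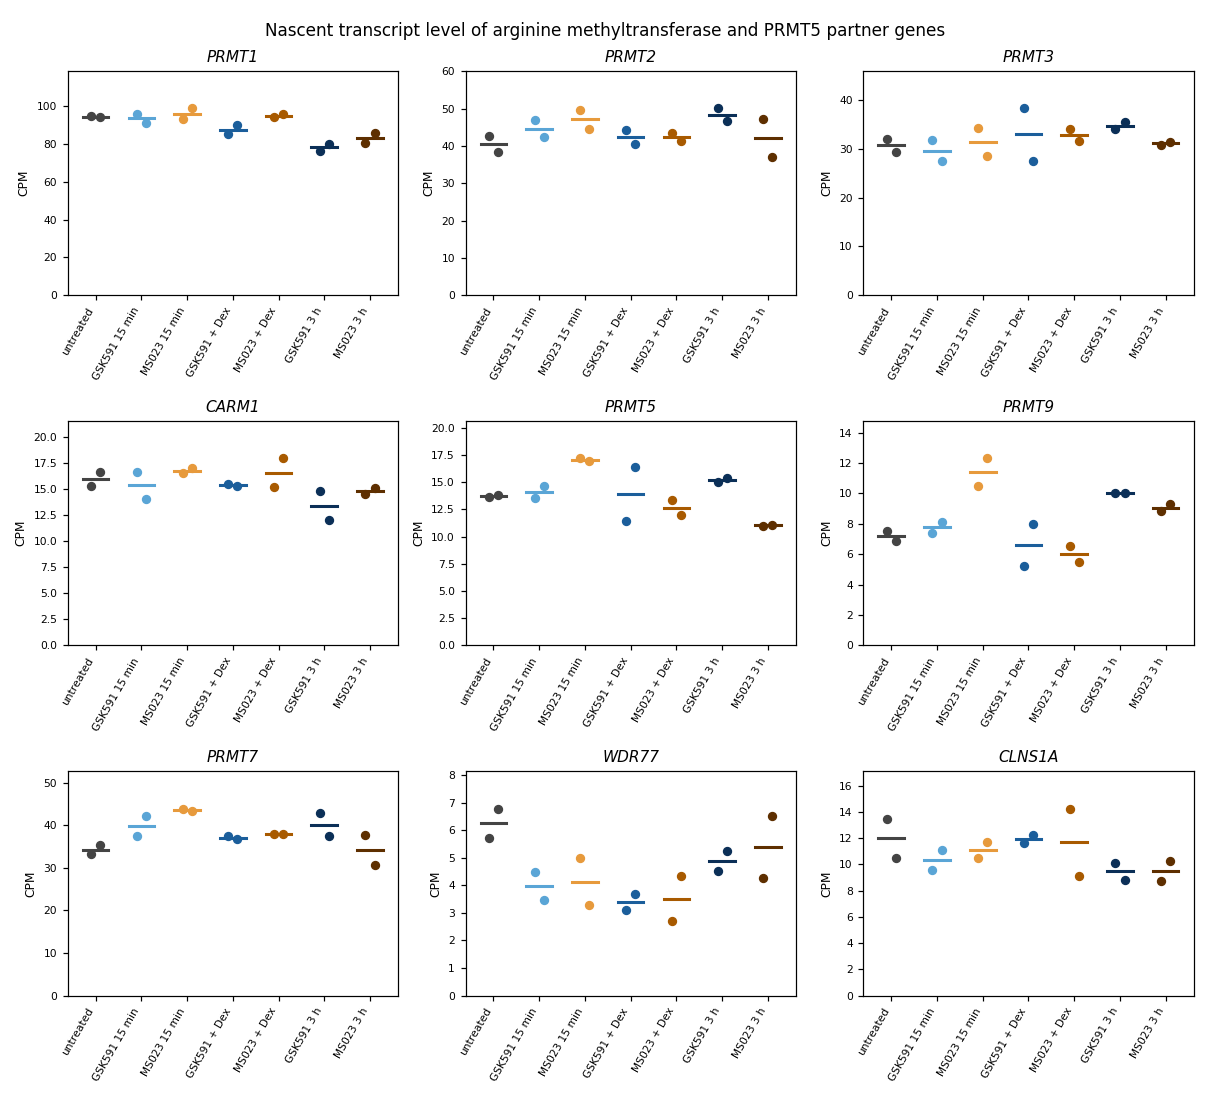
CPM of the 9 tested genes in each of the 14 libraries (points) with the group mean (line), each panel on its own axis from 0. The MS023 15 min group is the highest of the 7 for PRMT5 (17.1 CPM), PRMT9 (11.4 CPM) and PRMT7 (43.6 CPM).

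Of the type II enzymes, PRMT5 stood at 13.7 and 13.8 CPM in untreated libraries, 13.5 and 14.7 after 15 min of GSK591, and 17.2 and 17.0 after 15 min of MS023. With Dex it stood at 11.5 and 16.4 CPM beside GSK591 and at 13.3 and 12.0 CPM beside MS023. After 3 h it stood at 15.0 and 15.4 CPM with GSK591 and at 11.0 and 11.1 CPM with MS023. The MS023 15 min libraries were thus the highest of all 14 and the MS023 3 h libraries the lowest, while the GSK591 and Dex pair was the most spread. Between 15 min and 3 h of MS023, PRMT5 fell by 0.63 ± 0.16 (SE) on the log2 scale (95% interval -0.96 to -0.30, edgeR adjusted p = 0.00689). Of all genes tested, 4.4% were called lower in that comparison. Against untreated cells its log2 difference was 0.32 ± 0.15 at 15 min of MS023 (edgeR adjusted p = 0.61), and the call of the fall, but not its size, was lost with DESeq2 (log2 difference -0.62, adjusted p = 0.0567), without MS023 15 min replicate 1 (-0.62, edgeR adjusted p = 0.075) and without MS023 3 h replicate 1 (-0.63, edgeR adjusted p = 0.0597).

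PRMT5-AS1, the antisense gene, moved the other way between the same groups. It stood at 12.8 and 15.3 CPM after 15 min of MS023 and at 20.9 and 18.0 CPM after 3 h, a rise of 0.49 ± 0.15 on the log2 scale (edgeR adjusted p = 0.022). Of 21910 genes tested, 1676 were called higher in that comparison. The ratio of PRMT5-AS1 to PRMT5 was 1.11 and 1.21 in untreated libraries, 0.742 and 0.903 after 15 min of MS023, 1.90 and 1.63 after 3 h of MS023, and 1.37 and 1.30 after 3 h of GSK591. Since both strands were pooled, antisense reads over PRMT5 exons not shared with the annotated PRMT5-AS1 exons cannot be told apart from PRMT5 reads. Likewise, reads of the PRMT5 strand over unshared PRMT5-AS1 exons cannot be told apart from PRMT5-AS1 reads. The PRMT5-AS1 level and the ratio therefore do not measure antisense transcription alone. PRMT5-AS1 shares 35.2% of its exon bases with PRMT5 and RBM23. Whether reads in introns were counted is not stated. PRMT5-DT, with 2.61 CPM in untreated cells, was not called between these groups (log2 difference 0.29 ± 0.37, edgeR adjusted p = 0.70).

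**Figure D3:**
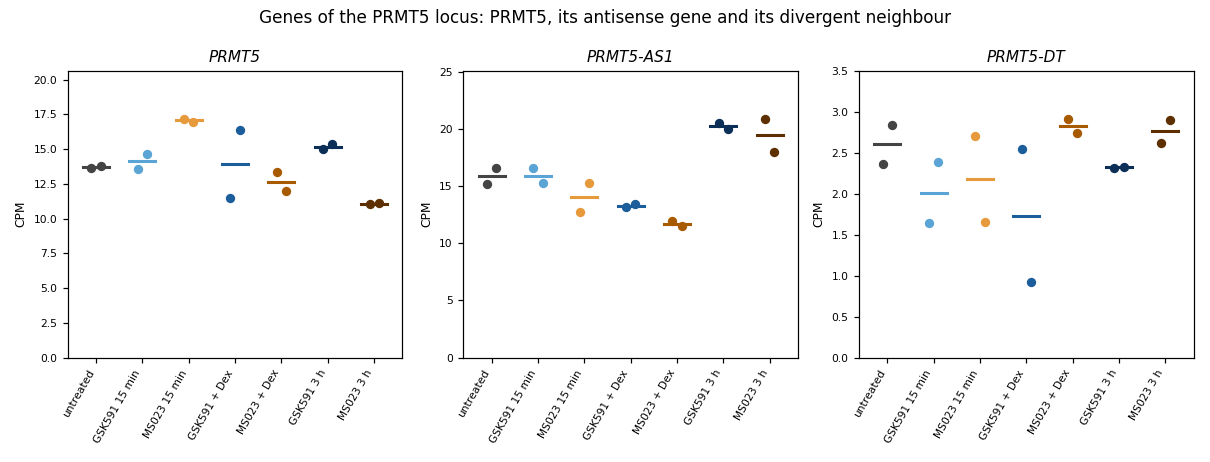
CPM of PRMT5, PRMT5-AS1 and PRMT5-DT in each library (points) with the group mean (line). From 15 min to 3 h of MS023, PRMT5 goes from 17.1 to 11.0 CPM and the PRMT5-AS1 libraries from 12.8 and 15.3 to 20.9 and 18.0 CPM.

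PRMT9 stood at 7.53 and 6.90 CPM in untreated libraries, 7.42 and 8.11 after 15 min of GSK591, and 10.5 and 12.3 after 15 min of MS023. With Dex it stood at 5.23 and 7.96 CPM beside GSK591 and at 6.54 and 5.48 CPM beside MS023, and after 3 h at 10.0 in both GSK591 libraries and at 8.83 and 9.28 with MS023. The MS023 15 min libraries were the highest of all 14. Adding Dex to MS023 took PRMT9 from 11.4 ± 1.29 to 6.01 ± 0.75 CPM (SD, n = 2), a fall of 0.91 ± 0.20 on the log2 scale (95% interval -1.32 to -0.50, edgeR adjusted p = 0.00199). In that comparison 3.07% of all genes were called lower. Without MS023 and Dex replicate 2 the log2 difference was -0.78 and the call was lost (edgeR adjusted p = 0.0698). DESeq2 also made this call. Against untreated cells PRMT9 differed by 0.65 ± 0.19 after 15 min of MS023 (edgeR adjusted p = 0.235) and by 0.47 ± 0.19 after 3 h of GSK591 (edgeR adjusted p = 0.117), neither of which passed.

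PRMT7, the type III enzyme, stood at 33.1 and 35.4 CPM in untreated libraries, 37.3 and 42.1 after 15 min of GSK591 and 43.9 and 43.2 after 15 min of MS023. It stood at 37.3 and 36.7 CPM with GSK591 and Dex, 38.0 in both libraries with MS023 and Dex, 42.7 and 37.4 after 3 h of GSK591, and 37.7 and 30.6 after 3 h of MS023. The untreated libraries lay below all those of 15 min treatments, with and without Dex, and below those of 3 h of GSK591. These separations rest on the same untreated libraries, and how many of all genes separate in this way was not counted. Against untreated cells the log2 difference was 0.35 after 15 min of MS023 (edgeR adjusted p = 0.307). After 3 h of MS023 the group mean was 34.2 ± 5.03 CPM, near the 34.2 ± 1.58 CPM of untreated cells (SD, n = 2). From 15 min to 3 h of MS023 PRMT7 fell by 0.34 ± 0.11 on the log2 scale (edgeR adjusted p = 0.0418). This call was lost with RLE size factors (edgeR adjusted p = 0.0525), with no count filter (0.0742), with DESeq2 (adjusted p = 0.169), when only the groups compared were fitted (edgeR adjusted p = 0.0829), and without MS023 15 min replicate 1 (0.207), MS023 15 min replicate 2 (0.126) or MS023 3 h replicate 2 (log2 difference -0.19, edgeR adjusted p = 0.483).

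The 3 calls therefore share the MS023 15 min libraries, the second of which had the lowest mitochondrial share of all. With mitochondrial genes left out of the counts, the log2 differences were almost the same (-0.63 for PRMT5, -0.35 for PRMT7 and -0.91 for PRMT9), and each was still called. With library size alone they were -0.77, -0.49 and -1.09, also called. There the median of all genes was -0.157 from 15 min to 3 h of MS023 and -0.19 when Dex was added to MS023. Whether the mitochondrial share plays a part in these calls was not tested. In tests of whether the inhibitors differed in their change from 15 min to 3 h, added after the data were seen, PRMT5 differed by 0.73 ± 0.23 on the log2 scale, GSK591 minus MS023 (edgeR adjusted p = 0.15, 0.561% of all genes called), PRMT9 by 0.69 ± 0.27 (adjusted p = 0.33) and PRMT7 by 0.36 ± 0.16 (adjusted p = 0.43). For the Dex effect beside GSK591 minus that beside MS023, the PRMT9 difference was 0.67 ± 0.30 (edgeR adjusted p = 0.40, 1.15% of all genes called). A difference between the inhibitors in these effects was thus not shown.

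Among the type I enzymes no member was called in any comparison. PRMT1 stood at 94.8 and 94.3 CPM in untreated libraries, 96.1 and 91.3 after 15 min of GSK591, and 93.2 and 99.1 after 15 min of MS023. With Dex it stood at 85.4 and 90.0 CPM beside GSK591 and at 94.3 and 95.8 CPM beside MS023, and after 3 h at 76.6 and 80.3 CPM with GSK591 and at 80.7 and 85.9 CPM with MS023. The GSK591 3 h libraries lay below all those of untreated and 15 min groups. Their difference from untreated cells was -0.27 ± 0.093 on the log2 scale (95% interval -0.46 to -0.08), just short of the threshold (edgeR adjusted p = 0.0531), and it passed in 3 alternatives (0.0442 without mitochondrial genes, 0.0147 with only these groups fitted, 0.0428 with the replicate block). It did not pass with RLE size factors (edgeR adjusted p = 0.0552), no count filter (0.122), DESeq2 (0.0917) or a library left out (0.117 to 0.289), and with library size alone the log2 difference was -0.14 (edgeR adjusted p = 0.617). After 3 h of MS023 it was -0.18 ± 0.093 (edgeR adjusted p = 0.267).

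PRMT2 ranged over the 14 libraries from 37.0 to 50.1 CPM (median 43.9), PRMT3 from 27.4 to 38.3 (median 31.7) and CARM1 from 12.0 to 17.9 (median 15.3). PRMT2, whose SH3 domain sets it apart from the other family members, differed most from untreated cells after 3 h of GSK591 (log2 difference 0.25 ± 0.11, edgeR adjusted p = 0.145). The CARM1 groups overlapped for the most part, with the lowest mean after 3 h of GSK591 (13.4 CPM) and the highest after 15 min of MS023 (16.8 CPM).

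PRMT6, which methylates histone tails, had 0 counts in 11 of 14 libraries, 2 counts in replicate 2 of GSK591 with Dex, and 5 and 18 counts in the MS023 3 h libraries (0.55 and 2.49 CPM). The MS023 3 h libraries thus stood above all others but differed from each other several-fold. Their pooled level of 1.4 CPM was at least 8.62-fold higher than the 0.163 CPM that 3 counts over the untreated group would give. That bound rests mostly on replicate 2: replicate 1 alone was at least 3.35-fold above the same floor. Without MS023 3 h replicate 2, PRMT6 had too few counts to be tested. Without the count filter, edgeR gave an adjusted p of 0.00246 against untreated cells, 0.0034 against 15 min of MS023 and 0.0428 against 3 h of GSK591, whereas DESeq2 gave an unadjusted p of 0.264 against untreated cells and no adjusted p. Of 22789 genes with 0 counts in both untreated libraries, 4 (0.0176%) reached at least 5 counts in both MS023 3 h libraries, and as many did so after 3 h of GSK591.

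Of the PRMT5 partners, WDR77 was highest in untreated cells. It stood at 5.70 and 6.79 CPM there, at 4.47 and 3.46 after 15 min of GSK591, and at 4.97 and 3.30 after 15 min of MS023. With Dex it stood at 3.11 and 3.67 CPM beside GSK591 and at 2.69 and 4.34 CPM beside MS023, and after 3 h at 4.54 and 5.23 CPM with GSK591 and at 4.25 and 6.51 CPM with MS023. All 4 groups treated for 15 min lay below the untreated libraries without overlap. The GSK591 3 h libraries did so too, whereas the MS023 3 h libraries overlapped the untreated ones. How many of all genes separate in this way was not counted. None of these differences was called: the log2 difference from untreated cells was -0.88 ± 0.29 with GSK591 and Dex (edgeR adjusted p = 0.0644), -0.82 ± 0.27 with MS023 and Dex (0.0554), -0.65 ± 0.27 with GSK591 alone (0.58) and -0.56 ± 0.27 with MS023 alone (0.61). These values rest on 22 to 62 counts per library and on the same untreated libraries, so the separations of these groups are not separate findings. CLNS1A ranged from 8.72 to 14.3 CPM (median 10.5). It stood at 13.4 and 10.5 CPM in untreated libraries, 10.1 and 8.84 after 3 h of GSK591, and 8.72 and 10.3 after 3 h of MS023, so both 3 h groups lay below the untreated libraries, but CLNS1A was not called in any comparison.

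Counted by comparison, edgeR called 0 of 9 members against untreated cells after 15 min of GSK591 (0.306% of all genes called), 15 min of MS023 (0.183%), GSK591 with Dex (5.85%), MS023 with Dex (7.66%), 3 h of GSK591 (11%) and 3 h of MS023 (7.63%). It also called 0 when Dex was added to GSK591 (3.7%), from 15 min to 3 h of GSK591 (6.41%), and between the inhibitors at 15 min (1.09%) and at 3 h (0%). DESeq2 called 0 in these as well, but it gave some members no adjusted p, so those could not be called. Among them were PRMT5, PRMT9 and WDR77 after 15 min of MS023, and WDR77 with GSK591 and Dex. After 15 min of MS023 DESeq2 called 31 of the 3778 genes to which it gave an adjusted p. At an unadjusted p under 0.05 edgeR passed 1 of the 9 after 15 min of GSK591 (6.85% of all genes), 4 after 15 min of MS023 (8.08%), 1 with GSK591 and Dex (18.4%), 1 with MS023 and Dex (19.8%), 4 after 3 h of GSK591 (23.8%) and 0 after 3 h of MS023 (19.9%). It passed 0 when Dex was added to GSK591 (16.7%), 1 from 15 min to 3 h of GSK591 (19.5%), and 1 between the inhibitors at 15 min (9.75%) and at 3 h (6.02%). From 15 min to 3 h of MS023, 8 of the 9 log2 differences were below 0, with a median of -0.21 against -0.01 over all genes, and 2 were called, where 12% of all genes were called in either direction. When Dex was added to MS023, 7 of 9 were below 0 with a median of -0.16 against -0.02 over all genes, and 1 was called, where 8.97% of all genes were. Between the inhibitors at 15 min all 9 tested members were lower with GSK591 (median -0.10, range -0.54 to -0.04, against 0.01 over all genes), none of them past the threshold. The untreated group carries the 15 min label, so in comparisons of 3 h treatments with it, time and inhibitor cannot be told apart. With no untreated 3 h group, the same holds for comparisons of 3 h with 15 min of an inhibitor.

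**Figure D4:**
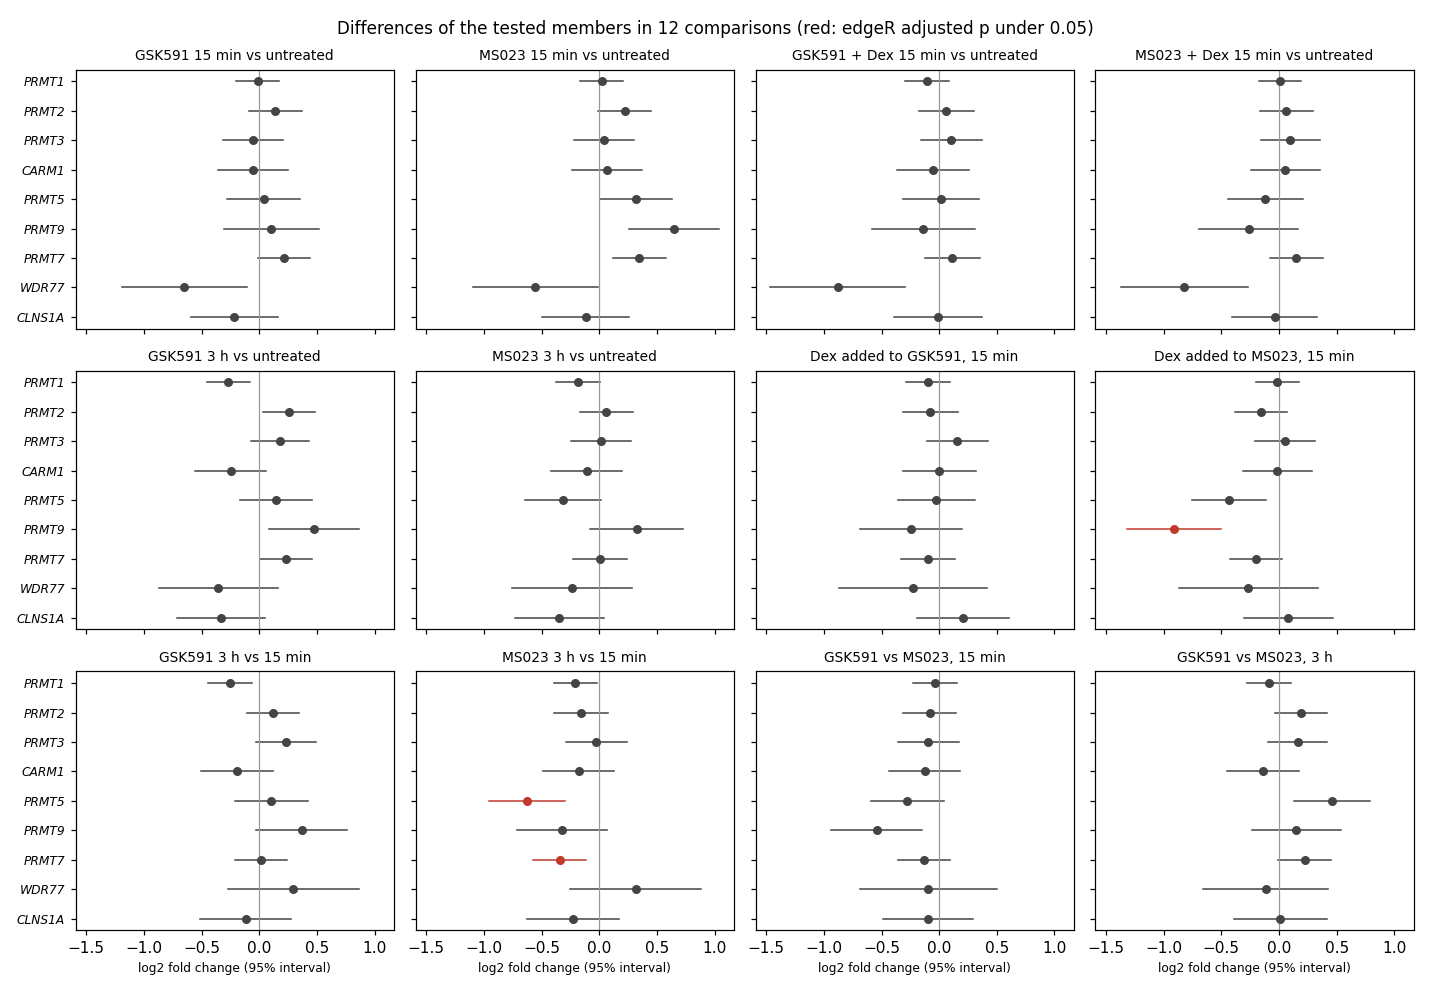
Log2 fold change with its 95% interval for the 9 tested genes in each of the 12 comparisons, with red for an edgeR adjusted p under 0.05. The 3 red points are PRMT9 when Dex was added to MS023 (-0.91) and PRMT5 (-0.63) and PRMT7 (-0.34) from 15 min to 3 h of MS023.

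In the authors' deposited tables, which compare each treatment with untreated cells, 0 members had an adjusted p under 0.05 in any of 6 comparisons, and 6 to 10 of the members had one. Over all genes with an adjusted p, the authors' deposited tables have 0% and 0.00681% under that threshold after 15 min of GSK591 and MS023, 1.36% and 1.96% with Dex added, and 6.07% and 3.17% after 3 h. The smallest unadjusted p of a member in the authors' deposited tables was 0.0406, for WDR77 with GSK591 and Dex (log2 fold change -1.01, SE 0.49).

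The genes around the methyltransferases were read from lists of the same pathway. Of the other methyltransferases and PRMT5 adaptors (5 genes, 4 tested), COPRS, which ties PRMT5 to histones, was called in 6 comparisons. In these comparisons 6.41% to 12% of all genes were called. COPRS stood at 11.2 and 13.9 CPM in untreated libraries, 21.5 and 15.5 after 15 min of GSK591, 10.3 and 14.9 after 15 min of MS023, 19.0 and 13.2 with GSK591 and Dex, and 21.4 and 28.4 with MS023 and Dex. After 3 h it stood at 39.8 and 38.8 CPM with GSK591 and at 34.2 and 47.0 CPM with MS023, above every other library. It rose against untreated cells by 1.65 ± 0.17 on the log2 scale after 3 h of GSK591 (edgeR adjusted p = 2.82e-09) and by 1.68 ± 0.17 after 3 h of MS023 (edgeR adjusted p = 2.29e-09). The authors' deposited table gives COPRS a log2 fold change of 1.51 (SE 0.30) after 3 h of GSK591, with an adjusted p of 5.45e-05. COPRS also rose when Dex was added to MS023, by 1.02 ± 0.19 (edgeR adjusted p = 0.000161). METTL23 was the other gene of this list called, lower with GSK591 and Dex (log2 difference -0.37 ± 0.11, edgeR adjusted p = 0.045).

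Of the S-adenosylmethionine cycle (10 genes, 9 tested), which supplies the methyl donor and clears its product, 2 genes were called higher after 3 h of GSK591, where 7.25% of all genes were, and 1 after 3 h of MS023, where 5.4% were. AHCYL2, a relative of the enzyme that hydrolyses S-adenosylhomocysteine, rose by 1.10 ± 0.17 and 1.04 ± 0.18 on the log2 scale in these comparisons (edgeR adjusted p = 1.55e-05 and 6.37e-05). It also rose when Dex was added to GSK591 (0.70 ± 0.18, edgeR adjusted p = 0.0164) and to MS023 (0.97 ± 0.19, edgeR adjusted p = 0.000376). In the latter comparison 2 genes of the list were called higher, where 5.9% of all genes were, and 1 lower; the other higher gene, named after its value was seen, was MAT2A, which makes S-adenosylmethionine (0.30 ± 0.099, edgeR adjusted p = 0.0478). AHCYL1, another relative of that enzyme, rose by 0.39 ± 0.13 after 3 h of GSK591 (edgeR adjusted p = 0.0431). MTAP, which clears the PRMT5 inhibitor methylthioadenosine and is known as deleted in A549 together with CDKN2A, stood at 21.3 ± 0.11 CPM in untreated cells, with 127 to 199 counts per library, whereas CDKN2A had 0 or 1 count per library. The counts do not show from which part of the MTAP gene those reads came, and MTAP was not called in any comparison.

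Of the readers of methylarginine and enzymes of its breakdown (8 genes, all tested), 2 were called higher after 3 h of GSK591 (7.25% of all genes) and 3 after 3 h of MS023 (5.4%). JMJD6, a hydroxylase of the Jumonji family, rose by 0.79 ± 0.12 and 0.60 ± 0.12 on the log2 scale (edgeR adjusted p = 3.94e-06 and 0.000494), and fell by 0.49 ± 0.14 when Dex was added to MS023 (edgeR adjusted p = 0.015). DDAH1, which degrades asymmetric dimethylarginine, rose by 0.94 ± 0.19 and 1.10 ± 0.19 in the 3 h comparisons (edgeR adjusted p = 0.000441 and 5.14e-05) and by 1.14 ± 0.19 when Dex was added to MS023 (edgeR adjusted p = 3.09e-05). Its relative DDAH2 fell by 0.76 ± 0.12 and 0.66 ± 0.12 when Dex was added to GSK591 and to MS023 (edgeR adjusted p = 8.77e-05 and 0.00012) and rose by 0.53 ± 0.11 after 3 h of MS023 (edgeR adjusted p = 0.000642). Of the 3 Sm genes whose proteins PRMT5 methylates, SNRPD1 alone was called, in 1 comparison, with a fall of 0.91 ± 0.24 after 3 h of GSK591 (edgeR adjusted p = 0.00826). There 11% of all genes were called in either direction. In these 4 lists edgeR called 0 genes after 15 min of GSK591 (0.306% of all genes called) or MS023 (0.183%). It also called 0 between the inhibitors at 15 min (1.09%) and at 3 h (0%), so few calls were to be had in these comparisons.

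**Figure D5:**
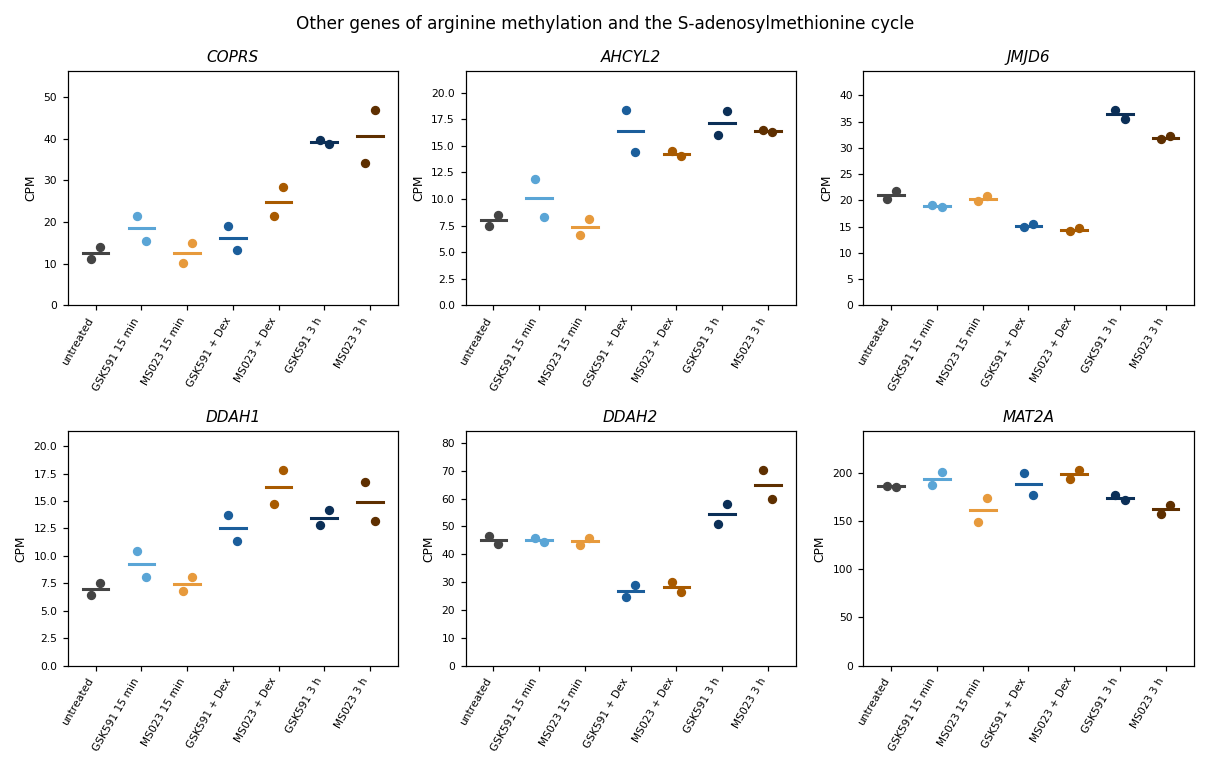
CPM of COPRS, AHCYL2, JMJD6, DDAH1, DDAH2 and MAT2A in each library (points) with the group mean (line). COPRS stands at 34.2 to 47.0 CPM in the 4 libraries treated for 3 h, and DDAH2 is lowest in the 4 libraries given Dex.

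Likeness of pattern was described by Pearson's r of log2 CPM over the 14 libraries, among 5941 genes of at least 20 CPM (5940 for PRMT1, which is itself one of them). The points share their library, its depth and its scaling. The genes named are the highest of each search, so their r is high in part by selection, and it was not tested. PRMT5 was most like PRKCSH (0.90), CACNB1 (0.80) and BOLA2B (0.79), the last of which has near-identical copies. PRMT1 was most like SNX19 (0.95), HCFC1 (0.93) and ARFRP1 (0.92). CARM1 was most like DUSP3 (0.81), HAUS5 (0.80) and CDCA5 (0.78), and WDR77 most like NIP7 (0.87), CES2 (0.81) and H4C14 (0.81). Between members, r was highest for PRMT1 with CARM1 and PRMT2 with PRMT7 (0.69 each) and lowest for PRMT7 with WDR77 (-0.50).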

How the data were processed

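PRO-seq libraries of A549 cells were analysed from 1 table of whole-number counts per gene that the authors deposited, made with featureCounts 2.0.1 (Subread) on hg38 per the submitters' processing notes. The aligner, counting feature, strand setting and treatment of duplicates are not given in the sources used here. The 6 deposited tables hold the authors' DESeq2 results: log2 fold changes and their errors, p-values and adjusted p-values, a test score (Wald statistic) and a mean signal per gene, per the file headers.

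Counts were tested with edgeR 4.0.16 (R 4.3.3): TMM scaling, edgeR's expression filter (21910 genes left), 1 fit of 14 libraries with 7 groups and 7 residual degrees of freedom, quasi-likelihood tests in 12 comparisons, and Benjamini-Hochberg adjustment over all genes within each comparison, with calls at an adjusted p under 0.05. CPM use TMM-scaled library sizes, so changes are relative to the bulk of genes. Alternatives were DESeq2 1.42.0, other scalings, no filter, no mitochondrial genes, only the groups compared, a replicate block and each library left out. Replicate pairs differed by more than sampling noise (chi-square per degree of freedom 2.08 to 13.95), so none was counted as a duplicate. Members and lists were chosen with earlier results of these data known. All 10 members are named, and from each other list at most the 3 called genes with the smallest p, plus MTAP; a gene of the S-adenosylmethionine list is not reported here. On simulated data for MS023 3 h against untreated, with a log2 change of 1, 60.8% of 194 changed genes and 9 unchanged genes were called among 21460 tested.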

Additional observations from a re-analysis of the deposited data

How the results depend on the processing

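Groups of 2 libraries limit all of these results, and WDR77, PRMT9 and PRMT6 had the fewest counts. No called difference of a member changed sign under any alternative. The number of members called changed as follows. With GSK591 and Dex against untreated it was 1 (WDR77) in place of 0 with library size alone and with no count filter, and with MS023 and Dex it was 1 (WDR77) with no count filter and with only the 2 groups compared. For 3 h of GSK591 against untreated it was 1 (PRMT1) without mitochondrial genes, with only the 2 groups compared and with the replicate block. For 3 h of MS023 against untreated, and for GSK591 against MS023 at 3 h, it was 1 (PRMT6) with no count filter. PRMT6 was also called in some fits with a library left out. In such fits PRMT6 passed the filter only through MS023 3 h replicate 2, the library where it was highest, so those calls are no separate evidence. When Dex was added to MS023 it was 2 (PRMT5 and PRMT9) with library size alone and 0 to 1 when libraries were left out. From 15 min to 3 h of MS023 it was 1 (PRMT5) with RLE size factors and with only the 2 groups compared, and 0 with DESeq2. With no count filter the 2 were PRMT5 and PRMT6. The members called there varied with the library left out, with PRMT6 among them. With library size alone the median log2 difference of all genes was -0.208 in place of -0.0043 when Dex was added to GSK591. It also changed the higher and lower calls over all genes, from 1293 and 673 to 533 and 1317 when Dex was added to MS023, from 1676 and 964 to 778 and 1391 from 15 min to 3 h of MS023, from 1588 and 831 to 1960 and 197 for 3 h of GSK591 and from 1184 and 488 to 850 and 151 for 3 h of MS023 against untreated. The replicate block moved no other count of members. Same-numbered libraries did not deviate together (correlations of -0.07 to 0.10 over 21 pairs of groups, 1 of them over 0.1), so the numbers were not taken as pairs.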
